A study of Mus musculus with 2 samples.

Results

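The mouse genome holds a rapidly expanded group of microRNA (miRNA) genes, named Mir297, Mir466, Mir467 and Mir669, most of which lie side by side in a single intron of Sfmbt2. Members were taken as every miRNA gene of GENCODE M21 whose symbol starts with 1 of those 4 names, which gave 81 of the 2202 genes counted. Of these, 6 are Mir297, 28 Mir466, 17 Mir467 and 30 Mir669 genes. Values come from miRNA sequencing of left cerebral cortex, with RNA under 30 nt selected, from B6CASTF1/J males, F1 offspring of the C57BL/6J and CAST/EiJ strains, aged 4 days. There is 1 group, with a library for each of replicates 1 and 2. The labels give each library a male of its own number but a single donor identifier, so they leave unclear whether the libraries came from separate animals. The libraries also differ widely in tissue markers. Throughout, pairs of values give the library labelled replicate 1 first and the library labelled replicate 2 second.

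A miRNA gene is transcribed into a hairpin, from which Drosha and Dicer cut a mature RNA of either arm that guides Argonaute to target messages through its seed, bases 2 to 8. Sfmbt2 encodes a Polycomb-group protein and is an imprinted gene, expressed from the paternal copy in the early embryo and in extraembryonic tissues. Its miRNA cluster is specific to rodents, grew by tandem duplication of sequence rich in CA and GU repeats, and is known from embryonic stem cells and from the placenta, whose growth it supports. Because the copies are so alike, a short read from 1 member can match many others equally well.

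The set of RefSeq sequences used here held mature sequences for 8 of the 81 members (assembly GRCm38.p6, which is mm10). RefSeq as a whole was not searched for the others. They are shown for their repeat character and their likeness to hairpins of the Sfmbt2 intron. The seed is in capitals.
mmu-miR-466i-3p (chr13:17747552-17747573, plus strand): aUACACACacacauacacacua
mmu-miR-466j (chr10:60960802-60960824, plus strand): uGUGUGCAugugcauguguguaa
mmu-miR-466k (chr3:85467396-85467418, plus strand): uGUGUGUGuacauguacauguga
mmu-miR-466q (chr3:28419988-28420007, plus strand): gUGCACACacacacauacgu
mmu-miR-467f (chr11:69635419-69635439, minus strand): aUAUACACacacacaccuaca
mmu-miR-467g (chr5:34732872-34732892, minus strand): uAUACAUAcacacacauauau
mmu-miR-467h (chr9:115381898-115381919, plus strand): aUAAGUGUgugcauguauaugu
mmu-miR-669n (chr3:115979905-115979924, plus strand): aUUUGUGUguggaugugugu

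Their 8 seeds all differ, although the sequences are rich in CA or GU steps, and 7 of the 8 lie within 1 mismatch of at least 1 hairpin of the Sfmbt2 intron. The miR-467h sequence lies within 1 mismatch of 2 intron hairpins, both of which held counts (1751 and 2115 summed). The miR-467g sequence does so with 2 hairpins (1898 and 2032 counts), and miR-669n with Mir669c alone (899 and 212 counts). The miR-467f sequence comes within 1 mismatch of 11 intron hairpins, of which only Mir467d held counts (2111 and 2198). In contrast, miR-466j is within 1 mismatch of 10 intron hairpins without a single count, and miR-466k of 8, of which 1 held a single read. For miR-466q the closest intron hairpin, Mir669c, had 4 mismatches. Exact copies also lie in other annotated genes, in 4 for miR-467g, 2 for miR-467h and 1 for miR-466i-3p. All 8 genes behind these sequences lie outside Sfmbt2, and each had 0 counts in both libraries.

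The libraries differed in tissue markers, and the cortex label goes against those of the library labelled replicate 2. Neuron-enriched miRNAs took 4.27% and 0.132% of counts (15 and 11 of 15 genes detected), skeletal and heart muscle miRNAs 0.00730% and 15.7% (3 and 8 of 9), Hox cluster miRNAs 0.0228% and 1.91%, and embryonic stem cell miRNAs 0.00227% and 0.000391%. Their part in the values below was not tested.

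Few members kept reads, and all reads that were kept were given to genes in the Sfmbt2 intron. Of the 81 genes, 10 had at least 1 count in either library (12.3%), against 35.3% of the 2121 miRNA genes that are no member. At least 10 counts in both libraries were reached by 7 members (8.64%), against 13.4% of the others. Own-strand counts of the families summed to 5729 and 5089, or 1910 and 1422 CPM (counts scaled so that all own-strand miRNA gene counts of a library sum to 1000000). That is 0.191% (exact 95% Clopper-Pearson interval 0.186 to 0.196) and 0.142% (0.138 to 0.146) of those totals, or 0.167% ± 0.0345 (SD, n = 2). These totals were 2999032 and 3577964 counts. Because the 2 libraries differ in tissue markers, the SD is no measure of spread within cortex. Intervals cover counting error only, since reads amplified by PCR are not separate molecules. In bulk tissue, fewer cells of a type and less of an RNA per cell cannot be told apart.

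The members split sharply by place. Inside Sfmbt2 (chromosome 2, 10370510 to 10595253, plus strand, mm10) lie 71 members, all on the strand of the host and all in the 62.5 kb intron between exons 10 and 11 of an annotated transcript of the gene. All 10 members with counts were among them, so the intron held 100% of the families' counts in each library. The 10 members outside held 0 counts in both libraries, which allows up to 1.00 and 0.838 CPM for each (the level of 3 counts). This limit holds for reads given to 1 gene and does not cover reads placed at several sites. Of these, Mir466q lies in an intron of Tnik on the same strand as that gene. Mir466i, Mir467f, Mir467g, Mir669n and Mir466k lie in introns of Cdk13, Fxr2, Grk4, Slc30a7 and Gm37240 on the opposite strand, and Mir297-1, Mir466f-4, Mir466j and Mir467h are intergenic.

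Whether a member is open to loss by placement at several sites was judged from sequence alone, with no counts, and the loss itself was not measured. Each hairpin was divided into all its windows of 22 bases, about the length of a mature miRNA, and a window was called single-site when it occurs at 1 position among all annotated miRNA genes, on either strand. At least 1 such window was found in 49 of the 81 members and none in 32. The 32 members without one held 0 counts in both libraries, and all 10 members with counts were among the 49. Where reads placed at several sites go to no gene, as in tables of this layout, the counting itself largely sets this outcome. The remaining 39 members had a single-site window and still held no count. Over all 2202 genes counts were also rare where no such window exists, with 6 of 297 genes without a single-site window holding any count (52 and 10 counts summed) and 0 of 297 reaching 10 in both libraries. Windows were compared among annotated miRNA genes only, so copies elsewhere in the genome are not seen, and a window may lie in the loop, where few reads arise. Both windows and counts rest on the mm10 reference. Differences of the CAST/EiJ copies from it, and their part in the counts and the order of members, were not tested.

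**Figure D1:**
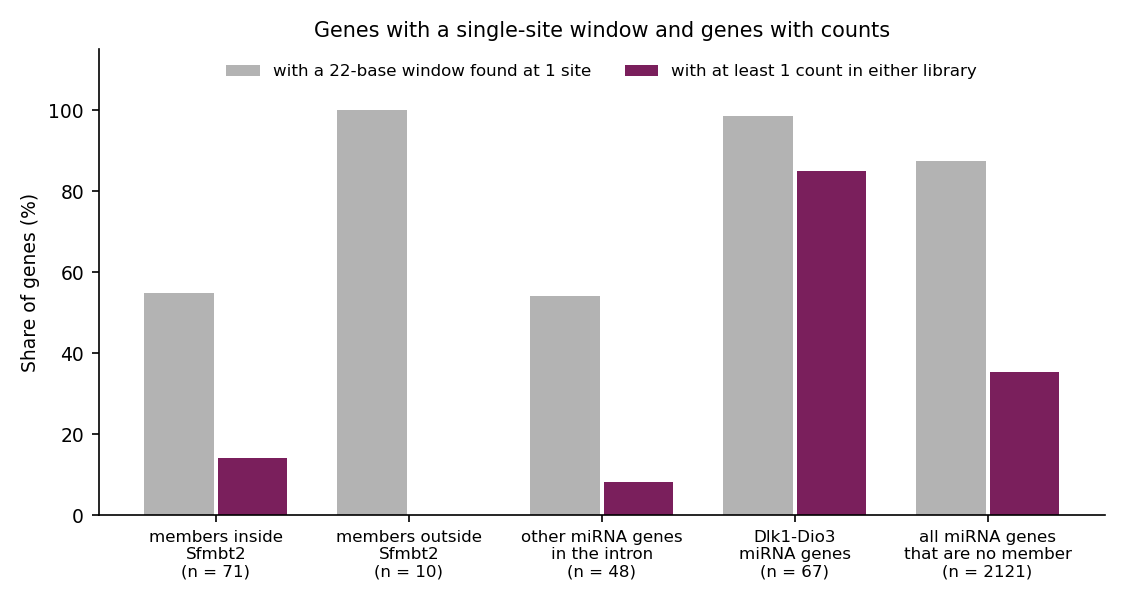
Share of genes (%) with a 22-base window found at 1 site (grey) and with at least 1 count in either library (purple), for 5 sets of miRNA genes with their sizes on the axis. A single-site window was present in 54.9% of members inside Sfmbt2 and in all 10 outside, while 14.1% and 0% held counts.

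For comparison, at the imprinted Dlk1-Dio3 region of chromosome 12, 66 of 67 miRNA genes had a single-site window and 57 held counts. Among genes with such a window, counts were seen in 57 of 66 there (86.4%), in 742 of 1856 non-member genes (40.0%) and in 10 of 49 members (20.4%). Members inside Sfmbt2 with a window held counts in 10 of 39 cases (25.6%) and those outside in 0 of 10. The outside members had a median of 77.0% of their windows at a single site (range 40.0 to 100%), against 59.0% (39.1 to 96.9) in the 10 members with counts and 41.6% (13.2 to 100) in the 39 members that had a window and no count. These shares cover whole hairpins, not the arm that yields reads. Among the outside members, the mature sequences of miR-467g, miR-467h and miR-466i-3p have exact copies in other annotated genes. A single-site window was thus present in every counted member, and most members with one held no count.

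The intron was divided into 3 parts by where its members without a single-site window lie. The middle runs from the first to the last of them, with Mir669a-2 set aside. How these members fall among the parts is therefore fixed by that choice. This middle, 29.7 kb from Mir466b-1 to Mir669a-12 (chromosome 2, 10474219 to 10503877), holds 38 members, of which 31 have no single-site window. Here a unit of a Mir467, a Mir466 and a Mir669 gene recurs with a few gaps, and the starts of 11 consecutive Mir669a and Mir669p hairpins are a median of 2451 nt apart (2414 to 2469). Whole hairpins are repeated without a difference. In all, 26 members are identical to another miRNA gene, 9 Mir669a genes form a single identical group, and 9 of 10 Mir467a genes are in identical groups of up to 7. The 38 members of this part together held 0 and 1 counts, the single read being at Mir466b-3. The 13 members before it, from Mir466m to Mir467c, held 713 and 523 counts in 3 genes. The 20 members after it, from Mir467e to Mir669h, held 5016 and 4565 counts in 6 genes, and of these 20 only Mir669a-2 had no single-site window. Nearly all counts were given to members on both flanks of the tandem array. Since 31 of the 38 members between the flanks have no single-site window, the choice of bounds and the counting largely set this outcome.

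**Figure D2:**
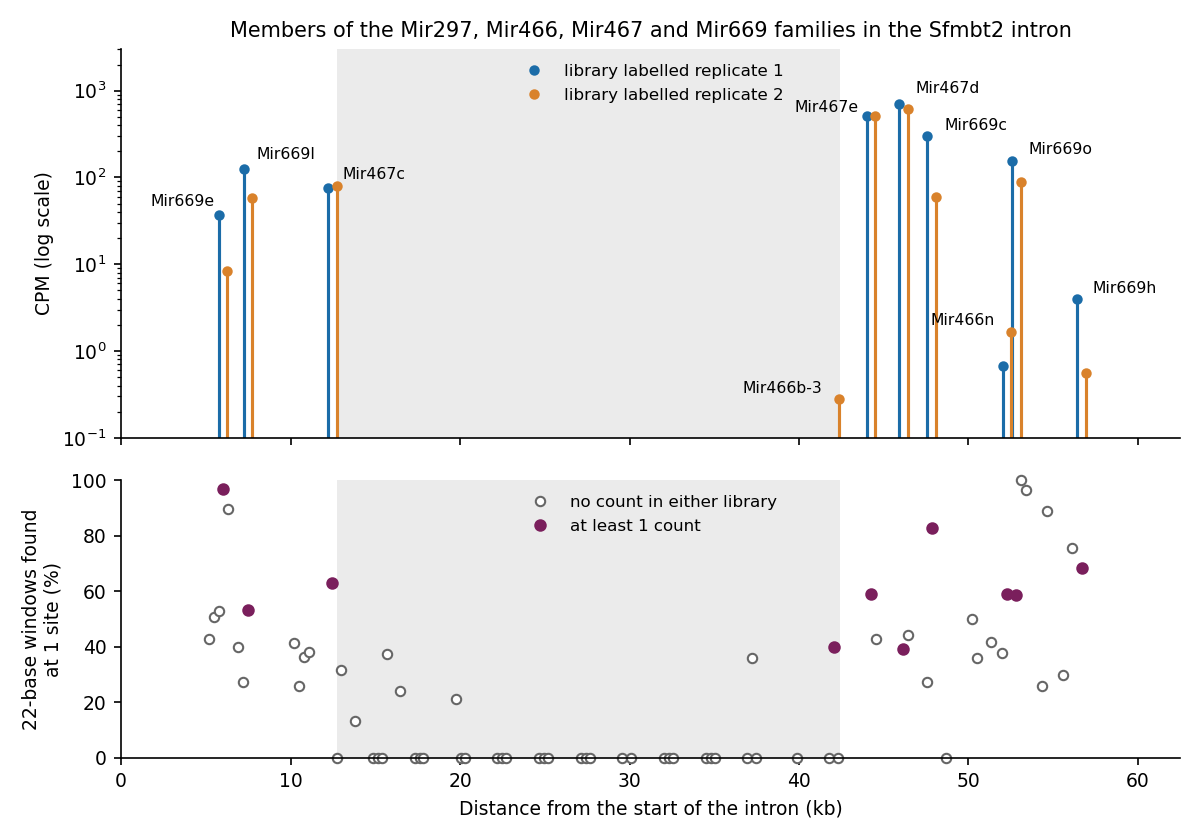
Members along the Sfmbt2 intron, by distance from its start (kb). Upper panel, CPM on a log axis in the library labelled replicate 1 (blue) and replicate 2 (orange), drawn slightly to the left and right of the gene; lower panel, share of each hairpin's 22-base windows found at 1 site (%), filled where the gene held at least 1 count. The shaded 29.7 kb was bounded by members without a single-site window, with Mir669a-2 set aside, so it holds 31 of the 32 by construction. Its 38 members held 0 and 1 counts, an outcome that this choice and the counting largely set.

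The Mir467 family carried most of what was counted, in 3 of its 17 genes. Mir467d (ENSMUSG00000077021.2; chromosome 2, 10507630 to 10507714) had 2111 and 2198 counts, or 704 and 614 CPM, and was the leading member in both libraries. It ranked 110 and 101 among the 2202 genes. Mir467e (ENSMUSG00000076948.2; 10505721 to 10505807 on the same chromosome) had 1524 and 1827 counts, or 508 and 511 CPM, nearly equal when scaled to total counts, but 1.41 higher (log2) in the library labelled replicate 2 with the TMM scaling described with the tests. Mir467c (10473931 to 10474027), which lies before the array, had 227 and 288 counts (75.7 and 80.5 CPM). All 3 are near relatives, Mir467d and Mir467e differing by 7 edits over hairpins of 85 and 87 nt. Mir467d has only 25 of 64 windows at a single site, the lowest share among members with counts, and has a run of 55 nt in common with Mir467a-1, which held 0 counts. Mir467b and the 10 Mir467a genes held none, and only Mir467b of these 11 has any single-site window (11 of 52).

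Mir669 genes came next, with counts in 5 of 30. Mir669c (ENSMUSG00000076118.1; 10509296 to 10509404) had 899 and 212 counts, or 299.8 and 59.3 CPM. Mir669o (ENSMUSG00000077086.1; 10514300 to 10514395) had 468 and 320 counts (156 and 89.4 CPM), and Mir669l (ENSMUSG00000076959.1; 10468971 to 10469068) had 374 and 205 (125 and 57.3 CPM). All 3 were lower by CPM in the library labelled replicate 2. Mir669e (10467495 to 10467613), with 95 of 98 windows at a single site, had 112 and 30 counts (37.3 and 8.38 CPM), and Mir669h (10518155 to 10518279) had 12 and 2. No count fell on the 12 numbered Mir669a genes, of which only Mir669a-3 has a single-site window.

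Mir466 is the second largest family and held almost no counts. Of its 28 genes, Mir466n had 2 and 6 counts and Mir466b-3 had 0 and 1, while the other 26 had 0. Single-site windows were present in 19 of the 28, so 17 genes with such a window had no count. Mir466g (59 of 59 windows at a single site) and Mir466h (58 of 60) are examples from the intron; both were chosen after their values were seen. The 6 Mir297 genes each had 25.9% to 50.0% of windows at a single site and 0 counts in both libraries.

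**Figure D3:**
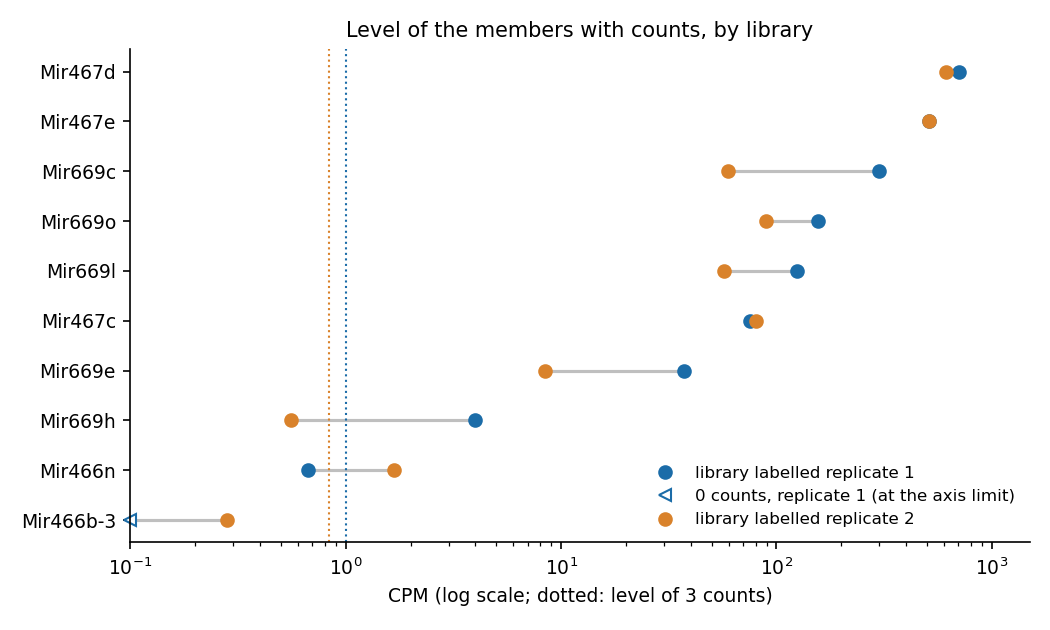
CPM (log axis) of the 10 members with counts in the library labelled replicate 1 (blue) and replicate 2 (orange), joined by a grey line, with dotted lines at the level of 3 counts in each library and an open triangle at the axis limit for 0 counts. Scaled to total counts, as here, the points of the Mir467 genes lie close together, Mir467e at 508 and 511 CPM, while Mir669c spans 299.8 to 59.3 CPM.

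By mean CPM the order was Mir467d (659 ± 63.3, SD, n = 2), Mir467e (509 ± 1.74), Mir669c (179.5 ± 170.1), Mir669o (123 ± 47.1), Mir669l (91.0 ± 47.7), Mir467c (78.1 ± 3.40) and Mir669e (22.9 ± 20.5). Each SD is over 2 libraries that differ in tissue markers and may not be separate animals, so it is no measure of spread within cortex. Dividing by hairpin length left the order of members as it was. No correction was made for the unequal shares of single-site windows among members. Mir467d lay above Mir467e, Mir467e above Mir669c, and Mir467c above Mir669e with no overlap between the libraries' values. Among Mir669c, Mir669o, Mir669l and Mir467c the values of neighbours overlapped across the libraries. Within each library Mir669o lay above Mir669l, and Mir669c lay above Mir669l too, by little in the library labelled replicate 2 (59.3 and 57.3 CPM). Mir669c was above Mir669o in 1 library and below it in the other.

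Within the families the mix of members shifted between the libraries, in a measure that does not depend on how the libraries are scaled. It does depend on how many reads of each member could be given to 1 gene. The share of windows at a single site was 39.1% for Mir467d and 83.0% for Mir669c, and its part in the mix was not tested. Mir467 genes made up 67.4% (66.2 to 68.6) and 84.8% (83.7 to 85.7) of the families' counts, and Mir669 genes 32.6% (31.3 to 33.8) and 15.1% (14.1 to 16.1). The intervals do not overlap, but they cover counting error in 1 library each. Among the Mir669 genes the widest difference was at Mir669c, which took 15.7% (14.8 to 16.7) and 4.17% (3.63 to 4.75). Mir467d outnumbered Mir669c by 2.35-fold (2.17 to 2.54) and by 10.4-fold (9.0 to 12.0), although the hairpins lie less than 2 kb apart in the same intron. Mir467d and Mir467e kept a closer ratio, 1.39 (1.30 to 1.48) and 1.20 (1.13 to 1.28). Mir669o to Mir669l was 1.25 (1.09 to 1.44) and 1.56 (1.31 to 1.87), with overlapping intervals, whereas Mir669c to Mir669o was 1.92 (1.72 to 2.15) and 0.663 (0.554 to 0.791).

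**Figure D4:**
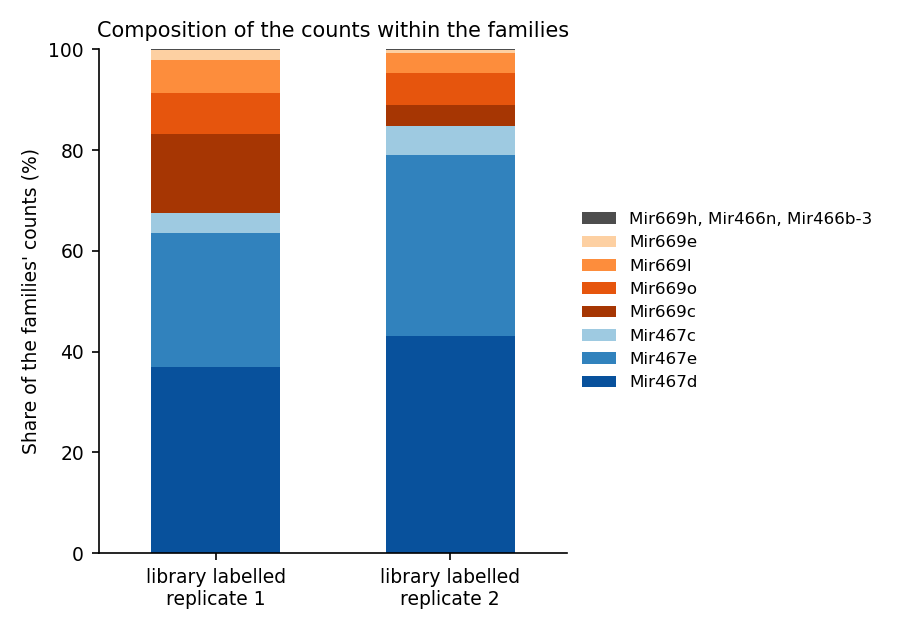
Share (%) of the families' own-strand counts by member in each library, with Mir467 genes in blue and Mir669 genes in orange. Mir467 genes made up 67.4% of 5729 counts in the library labelled replicate 1 and 84.8% of 5089 in the library labelled replicate 2.

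Whether a member was higher or lower in the library labelled replicate 2 depended on the scaling. An exact two-sided binomial test of each gene's counts, adjusted by Benjamini-Hochberg over the 463 miRNA genes with at least 10 counts summed, takes only counting error into account and compares 2 libraries, not conditions. Scaled by the trimmed mean of M values (TMM), 7 of 8 tested members were called, against 79.9% of all tested genes. Higher calls numbered 5 (40.6% of all tested genes) and lower calls 2 (39.3%). With total counts 6 of 8 were called (90.1% of all), 0 higher (26.3%) and 6 lower (63.7%). Whether these shares differ from those over all genes was not tested. The median log2 ratio of the 8 members was 0.44 with TMM and -0.95 with total counts, beside -0.26 and -1.35 over all tested genes.

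Mir669c and Mir669e were lower under both scalings. For Mir669c the log2 ratio (with a prior of 1 CPM) was -0.93 with TMM (adjusted p = 4.16e-19, exact binomial test) and -2.32 with total counts, a fold ratio of 0.198 (0.169 to 0.230) without a prior. Mir669e had -0.71 (adjusted p = 0.0145, exact binomial test) and -2.03, and its call was lost with DESeq2 size factors, unstranded counts and the negative binomial test (adjusted p over 7 alternatives 1.28e-15 to 0.0653). Mir467d was called higher with TMM (log2 1.21, adjusted p = 1.19e-161, exact binomial test) and lower with total counts (-0.20, adjusted p = 1.22e-05), where its fold ratio was 0.873 (0.822 to 0.927). Mir669o (0.60 and -0.80) and Mir669l (0.28 and -1.11) also changed side, with adjusted p of 2.82e-08 and 0.0359 under TMM in the exact binomial test. With TMM computed on genes with at least 100 counts both lost their call, at log2 0.17 and -0.15. The Mir669l call was also lost with no filter and in the negative binomial test (adjusted p over 7 alternatives 9.52e-20 to 0.303). Mir467e (1.41, adjusted p = 1.49e-172, exact binomial test) and Mir467c (1.47, adjusted p = 6.81e-31) were called higher with TMM and under every alternative tried except total counts, where their fold ratios were 1.00 (0.938 to 1.08) and 1.06 (0.891 to 1.27). Mir669h, with 12 and 2 counts, did not pass with TMM (-0.86, adjusted p = 0.283, exact binomial test) and was lower with total counts (-1.68, adjusted p = 0.00328).

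Reads on the strand opposite to the members numbered 0 in both libraries, so counting without regard to strand gave the same 5729 and 5089 counts. The totals over all miRNA genes did change, to 2829404 and 3153629 counts. With them the mean share of the families was 0.182%, against 0.167% with own-strand counts. How much the families lost to reads placed at several sites cannot be read from the tables, which give that class as a total of 4626252 and 2706949 reads, or 46.1% and 39.8% of all reads. The families' part in it was not tested.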

How the data were processed

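The deposited tables hold, for each miRNA gene, raw read counts in 3 columns (either, own and opposite strand), 1 table per library, on mm10 with GENCODE M21 per the text deposited with them. An aligner or counter is not given in the sources used here. Table layout is that of STAR gene counts, in which reads placed at several sites go to no gene. Own-strand counts were used; the 4 entries without a gene stayed out of totals and tests. They took 46.1% (several sites), 18.4% (unplaced) and 5.55% (outside miRNA genes) of reads in the library labelled replicate 1, and 39.8%, 6.11% and 1.47% in the library labelled replicate 2. Own-strand totals were 2999032 and 3577964.

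Members, lists and tests were chosen with earlier results of these data known. Single-site windows of 22 bases were computed from GENCODE M21 transcript sequences of all 2202 miRNA genes. They replace the planned count of sites of mature sequences over the whole genome, which was not run, and this was settled after the data were seen, as were the bounds of the tandem stretch. Genes with at least 10 counts summed (463) entered an exact two-sided binomial test against the TMM-scaled share (factors 1.63 and 0.615), adjusted by Benjamini-Hochberg and called under 0.05. Log2 ratios carry a prior of 1 CPM and are replicate 2 over replicate 1, as labelled. An edgeR quasi-likelihood test needs replicates on each side and was not run. With 2 libraries the smallest one-sided permutation p is 0.5, and a two-sided one cannot tell the libraries apart. Members with at least 100 counts summed were named with counts and CPM, the 5 with the highest mean CPM in full, and those with 10 to 99 by counts. Mir466n and Mir466b-3, and the examples of members at 0, were named after their values were seen.

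Alternatives were unstranded counts, total counts, DESeq2 size factors, no filter, a minimum of 100 counts, a prior of 0.1 CPM, edgeR's negative binomial test at a coefficient of variation of 0.1, removal of the most abundant gene, windows with 1 mismatch or of another length, and each library alone. The binomial test, with total-count scaling, and the window count were tried on simulated data. The simulated counts held counting error only, and TMM scaling and the negative binomial test were not simulated. Statistics used scipy 1.17.1 and numpy 2.4.6, scaling used edgeR 4.0.16 and DESeq2 1.42.0 in R 4.3.3, and tables and plots used pandas 2.3.3 and matplotlib 3.10.9 in Python 3.11.15.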

Additional observations from a re-analysis of the deposited data

Results flagged for a closer look

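Reads placed at several sites lie outside every gene count, and made up 46.1% and 39.8% of all reads (replicate 1, then replicate 2, as labelled). They drew attention because this is a large signal in a class that the counts of the families do not use. The families' part in it was not tested.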

How the results depend on the processing

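The share of the families ran from 0.142% to 0.191% with each library alone, and that of Mir467d from 36.8% to 43.2%. The intron and the members with a single-site window each held 100% of the families' counts in either library. The members with at least 10 counts numbered 7 to 8 with each library alone, 9 with a minimum of 1 count and 6 with a minimum of 100. Members with a single-site window numbered 49 with windows of 18, 20 or 24 bases and when all GENCODE transcripts were searched, but 41 when 1 mismatch was allowed. The share of counts at such members was then 99.99%, because Mir466b-3, with its 1 read, no longer had such a window. Between the libraries, the 5 members called higher with TMM (beside 40.6% of all tested genes) became 0 with total counts (beside 26.3%). They became 3 with a minimum of 100 counts. The 2 called lower (beside 39.3%) became 6 with total counts (beside 63.7%). They became 1 each with DESeq2 size factors, unstranded counts and the negative binomial test. Shares over all tested genes are given here for TMM and total counts only, so calls under the other settings have no such reference. Direction turned with total counts for Mir467d (-0.20), Mir669o (-0.80) and Mir669l (-1.11), and with a minimum of 100 counts for Mir669l (-0.15). The cause was not tested. No paired analysis was possible because there is 1 group, with 1 library for each replicate number. Members at 0 counts can only be said to lie under 1.00 and 0.838 CPM as counted, and copies outside annotated miRNA genes are not seen.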

Other observations

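The Sfmbt2 intron also holds 48 annotated miRNA genes whose symbols do not belong to the 4 families. Of these, 26 have a single-site window and 4 held counts, with 6 counts in all, each of them in the library labelled replicate 1. Gm22072 and Gm22925 had 2 counts each, Gm26398 and Gm26491 1 each. The 22 genes without a single-site window held no count.

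Reads were given to 6 miRNA genes elsewhere that have no single-site window. Gm23935 had 40 and 9 counts, Gm24270 7 and 0, and Gm47295 2 and 1. Gm23419, Gm24245 and Gm47287 each had 1 and 0. Their counts show that the absence of a 22-base single-site window within annotated miRNA genes did not always go with a count of 0.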
